A study of Homo sapiens with 12 samples.

Results

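The comparison described here set 3 arrays of differentiated Caco-2 cells exposed to surfactant-coated silver nanoparticles (AgPURE) at 25 µg/mL against 3 arrays of the same cells exposed to silver ions, given as AgNO3, at 0.5 µg/mL. These are 6 of the 12 arrays of the study, and the comparison ran over all 19775 genes that had a probe set with exactly 1 gene symbol. Caco-2, an established line from a human colon carcinoma, acquires enterocyte-like features once it has been confluent for some time. All cells were at passage 22 and 21 days past confluence, and every exposure lasted 24 h in 20 mL of medium holding an insulin, transferrin and selenium mix at 1%. The other 6 arrays, 3 of cells in medium alone and 3 of cells given the same nanoparticles at 2.5 µg/mL, served as background and shared the estimate of the spread. Nominal dose (50-fold by the labelled figures, whose mass basis is not stated), physical form and surfactant all differed between the groups compared, and no group received surfactant alone. A difference between them therefore cannot be assigned to any of these. Whether a group's 3 arrays stem from separate cultures is not stated, so the p-values below rest on a spread that may be purely technical.

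With nanoparticles, 8 of 9 measured metallothionein genes were higher than with ions (list median 3.95 on the log2 scale), and most heat shock genes (19 of 21, median 0.73) and NRF2 target genes (20 of 30, median 0.42) were higher by smaller amounts. Most genes of liver-type secretion (14 of 22), lipoprotein assembly (14 of 22) and interferon response (17 of 22) were lower. Poly-A control scaling, described below, turned the heat shock and NRF2 medians to -0.05 and -0.37, where the median of all genes was -0.83. HSPA6, a heat-inducible HSP70 chaperone, was 119-fold higher (log2 difference 6.90 ± 0.28 SE, 3 arrays against 3). The metallothionein gene MT1G was 24.0-fold higher (4.58 ± 0.15), and the haem oxygenase gene HMOX1 17.9-fold (4.16 ± 0.12). In the other direction, the apolipoprotein gene APOC3 was 7.50-fold lower (-2.91 ± 0.16) and the interferon-induced gene IFIT1 6.96-fold lower (-2.80 ± 0.14). For these 5 genes the ion arrays lay close to medium, with differences from it between -0.29 and 0.03 on the log2 scale.

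As background, metal ions that bind thiols can release zinc from proteins, and free zinc activates the factor MTF1, which binds metal response elements in metallothionein promoters. Unfolded protein frees the factor HSF1 to bind heat shock elements, and oxidants or thiol reagents let the factor NRF2 escape degradation and act at antioxidant response elements. Differentiated Caco-2 cells are used as a model of the intestinal lining, and they also make apolipoproteins and other secreted proteins that adult liver makes.

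Expression was read as log2 values per probe set, 1 array per sample, and such values are called levels below. On all 3 nanoparticle arrays the spiked poly-A control probe sets (24 of them) had higher means than on the 3 ion arrays, by 0.79 on the log2 scale. The 18 hybridization control probe sets differed by 0.44 and the 6 probe sets for ribosomal RNA by 0.70, both higher with nanoparticles (exact permutation test, two-sided p = 0.10 each, the smallest that 3 against 3 arrays can give). Across probe sets, which are not independent, nanoparticle and ion arrays correlated with r between 0.978 and 0.981, against 0.992 to 0.996 among the ion arrays. Ion replicate 1 had the lowest weight of all 12 arrays in limma's array-weight fit, 0.408, and read low for several secreted-protein genes named below. For RNA integrity, the 3' minus 5' probe set difference of ACTB was 0.56 ± 0.14 with nanoparticles and 0.71 ± 0.25 with ions (SD, n = 3). Of 12 fixed Caco-2 and enterocyte markers, 11 had a value and HNF4A was not analysed here. EPCAM, KRT18, KRT8, CDH1 and VIL1 stood at or above the 91st percentile of all genes in both groups, whereas the sucrase gene SI stood at or below the 6th. The defining leukocyte marker PTPRC was at the 16th and 12th percentile with nanoparticles and ions, the lowest of 3 leukocyte markers that reached the 45th and 48th. Paneth markers ran from the 5th (DEFA5) to the 32nd in both groups. Fibroblast markers ran from the 16th to the 85th with nanoparticles and from the 21st to the 86th with ions. Of these, COL1A1 and PDGFRA stood at or above the 75th in both groups. Goblet, enteroendocrine and endothelial markers reached the 56th, 70th and 46th with nanoparticles and the 56th, 49th and 46th with ions.

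A gene was called when limma's p-value, adjusted by Benjamini-Hochberg over all 19775 genes, was under 0.05. By that rule 6378 genes (32.3%) were called, 2702 (13.7%) higher with nanoparticles and 3676 (18.6%) lower. Most of these differences were small, with 5764 of the called genes, or 90.4%, within 2-fold, 258 (1.30% of all) higher by 2-fold or more and 356 (1.80%) lower by as much. Past 4-fold there were 50 higher genes and 28 lower ones. Of the called genes, 3997 had several probe sets, and in 61.5% of these all probe sets shared a sign. The 3 nanoparticle arrays lay wholly outside the range of the 3 ion arrays for 8513 genes (43.0%). For 14517 genes (73.4%) the 95% interval of the difference lay inside 1.5-fold in either direction. All of these directions are relative to the submitters' normalization, which gave a median difference of -0.04 over all genes. With poly-A control scaling that median became -0.83, with 141 genes higher and 17368 lower, and with hybridization control scaling -0.48, with 498 higher and 13817 lower. Poly-A scaling lowered every difference by 0.79 and hybridization scaling by 0.44. A rise given below that is smaller than this turned under that scaling, also where this is not repeated. Somewhat larger rises could lose their calls. Each sample was given as 250 ng of RNA, so none of these scalings can tell the RNA content per cell. Which scaling is closer to the true differences was not tested. Where 2 percentages follow a gene list below, they are the shares of its measured members called higher and lower. They are to be read against the 13.7% and 18.6% of all genes, and a list median against -0.04. List medians under poly-A and hybridization scaling are instead to be read against -0.83 and -0.48, also where this is not repeated.

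**Figure D1:**
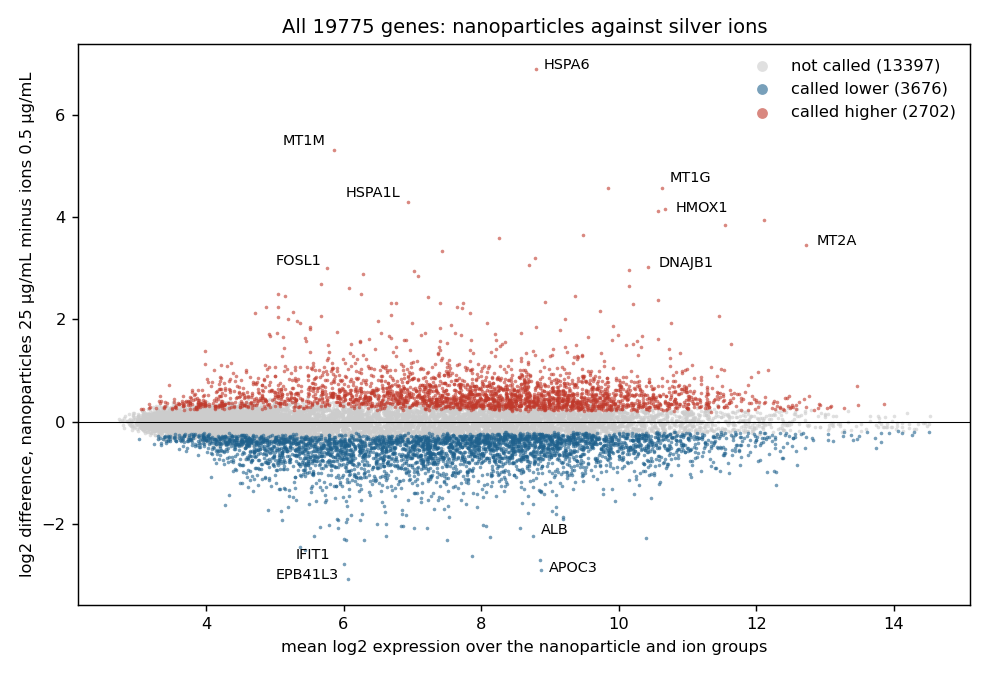
Each point is 1 of 19775 genes, with the mean log2 expression over the nanoparticle and ion groups on the horizontal axis and the log2 difference, nanoparticles minus ions, on the vertical axis. Red points were called higher (2702), blue points lower (3676) and grey points not called, with HSPA6 highest at 6.90 and EPB41L3 lowest at -3.09.

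Metallothioneins are small cysteine-rich proteins that hold zinc, copper, cadmium and silver. Of 9 measured family members, 8 were called higher and 0 lower (88.9% and 0%), with a median log2 difference of 3.95 that stayed at 3.17 under poly-A scaling and 3.52 under hybridization scaling. MT2A, the most widely expressed family member, had levels of 14.47, 14.46 and 14.44 on nanoparticle replicates 1, 2 and 3, and 10.70, 10.84 and 11.45 on the ion replicates. MT1G had 12.91, 12.89 and 12.98 with nanoparticles and 8.36, 8.13 and 8.54 with ions. In both genes the nanoparticle arrays lay within 0.1 of each other and more than 2 log2 units above every ion array. The log2 difference of MT2A was 3.46 ± 0.20 (limma adjusted p 2.7e-08), and MT1X was 15.5-fold higher (3.95 ± 0.22). MT1M was nearly silent with ions, at 3.28, 3.03 and 3.31, and reached 8.34, 8.61 and 8.60 with nanoparticles, so its 39.6-fold difference starts from a level among the lowest of all genes. MT1E, MT1H and MT1F differed by 4.57, 4.13 and 3.84. MT3, known from brain, rose by less (0.69 ± 0.13) from a level below the median of all genes, and under poly-A scaling the list had 7 higher members and 1 lower. MT4, known from stratified epithelium, differed by 0.29 with an interval of 0.01 to 0.57 before adjustment (limma adjusted p 0.1102), and its arrays overlapped. Probe sets of the MT1 copies share sequence, so the share of signal from each copy is uncertain.

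The promoters of MT2A, MT1X and MT4, each 250 bases before to 50 after the start from RefSeq's GRCh38.p14, are shown because the first 2 belong to genes that rose and the last to a neighbouring family member that was not called. Capitals mark TGCNCNC, the core of the metal response element, searched on both strands with overlapping matches allowed.
MT2A, chr16:56608334-56608633, plus strand: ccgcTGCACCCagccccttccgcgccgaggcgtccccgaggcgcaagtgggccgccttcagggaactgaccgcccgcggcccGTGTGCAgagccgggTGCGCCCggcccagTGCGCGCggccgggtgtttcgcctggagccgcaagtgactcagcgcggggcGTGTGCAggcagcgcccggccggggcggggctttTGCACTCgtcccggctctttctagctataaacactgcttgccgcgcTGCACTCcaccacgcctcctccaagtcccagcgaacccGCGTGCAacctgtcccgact
MT1X, chr16:56682220-56682519, plus strand: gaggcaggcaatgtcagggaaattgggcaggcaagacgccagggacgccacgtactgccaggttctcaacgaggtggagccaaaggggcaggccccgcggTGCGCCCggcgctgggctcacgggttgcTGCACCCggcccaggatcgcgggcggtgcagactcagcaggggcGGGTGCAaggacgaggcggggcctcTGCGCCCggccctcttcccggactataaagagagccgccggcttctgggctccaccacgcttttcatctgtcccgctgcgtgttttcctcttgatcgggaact
MT4, chr16:56564823-56565122, plus strand: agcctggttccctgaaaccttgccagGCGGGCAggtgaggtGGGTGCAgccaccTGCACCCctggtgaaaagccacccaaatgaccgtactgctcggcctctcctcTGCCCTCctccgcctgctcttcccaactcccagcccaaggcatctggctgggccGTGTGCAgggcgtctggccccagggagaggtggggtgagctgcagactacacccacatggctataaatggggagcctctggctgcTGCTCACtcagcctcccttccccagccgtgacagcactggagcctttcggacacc
The core occurs 8 times in the MT2A window, 4 times in that of MT1X and 6 times in that of MT4. It is a short motif, present in 60.8% of the 15382 promoters that matched a gene tested, and in 4 of 4 matched metallothionein promoters. The MT4 window thus holds more matches than that of MT1X, which rose, while MT4 was not called. Among genes called at least 2-fold higher, 58.0% of 193 matched promoters held it, no more than among all genes.

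Other metal handling genes went both ways. Of 31 zinc and copper transport genes, 6 were called higher and 14 lower (19.4% and 45.2%, against 13.7% and 18.6% of all genes), and the list median was -0.17 (-0.96 with poly-A and -0.60 with hybridization scaling). The zinc exporter gene SLC30A1, a textbook MTF1 target, read 11.42, 11.38 and 11.29 with nanoparticles and 9.82, 10.24 and 10.30 with ions. The groups did not overlap, and the difference was 1.24 ± 0.13 (limma adjusted p 6.6e-06), falling short of a call under poly-A scaling (0.45). Against medium, SLC30A1 was 0.67 with nanoparticles and -0.58 with ions, the latter not called (limma adjusted p 0.6507). Part of the gap between the exposures thus lay below medium on the ion side. SLC30A2, which loads zinc into vesicles, was 4.97-fold higher. MTF1 itself rose by 0.36 ± 0.11 and the copper pump gene ATP7A by 0.57, from a dim level. Zinc importers of the SLC39 family were mostly lower, among them SLC39A11 (-0.96), SLC39A10 (-0.83) and SLC39A5 (-0.74). The copper chaperone genes ATOX1 and COX17 fell by 0.68 and 0.66, whereas the copper importer gene SLC31A1 differed by 0.05, with an interval of -0.12 to 0.22.

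**Figure D2:**
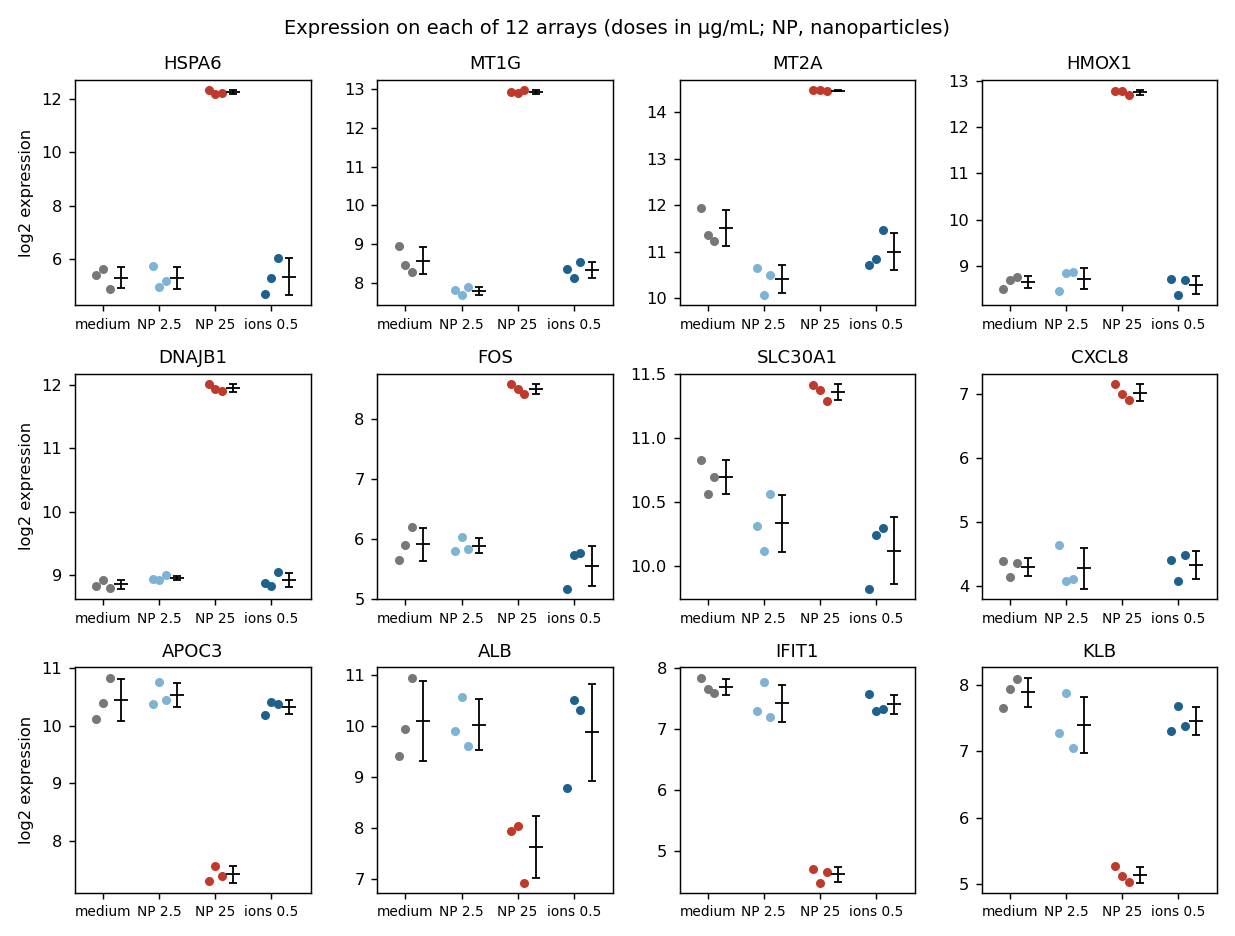
Log2 expression of 12 genes on each of the 12 arrays, grouped as medium, nanoparticles at 2.5 and 25 µg/mL and ions at 0.5 µg/mL, with the bar giving the mean and SD of 3 arrays. In every panel the 3 arrays at 25 µg/mL sit apart from the 3 ion arrays, above them for the first 8 genes and below them for APOC3, ALB, IFIT1 and KLB.

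Heat shock proteins fold new or damaged proteins. Of 21 measured genes of the cytosolic and mitochondrial families, 19 were called higher and 0 lower (90.5% and 0%), with a median of 0.73 that poly-A scaling turned to -0.05 and was 0.30 under hybridization scaling. HSPA6 read 12.33, 12.19 and 12.23 with nanoparticles and 4.70, 5.31 and 6.06 with ions. The ion arrays spanned more than 1 log2 unit and lay near or below the median of all genes, so the fold rests on a dim baseline, but no array came near the other group. DNAJB1, the HSP40 partner that feeds clients to HSP70, read 12.01, 11.93 and 11.89 against 8.89, 8.84 and 9.05, an 8.10-fold difference (3.02 ± 0.08, limma adjusted p 1.4e-11). HSPA1L was 19.7-fold higher and CRYAB, a small heat shock protein gene, 10.1-fold. The co-chaperone genes BAG3 and HSPH1 rose by 1.93 and 1.52, and HSP90AA1 by 0.70. The mitochondrial chaperonin genes HSPD1 and HSPE1 were the 2 that were not called, with intervals of -0.10 to 0.24 and -0.15 to 0.37, both inside 1.5-fold. HSP70 copies also share sequence, and HSPA1A, whose probe sets match several genes, was not analysed here.

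The HSPA6 promoter is shown because it belongs to the gene with the largest rise. Capitals mark GAANNTTC, a pair of facing heat shock units.
HSPA6, chr1:161524290-161524589, plus strand: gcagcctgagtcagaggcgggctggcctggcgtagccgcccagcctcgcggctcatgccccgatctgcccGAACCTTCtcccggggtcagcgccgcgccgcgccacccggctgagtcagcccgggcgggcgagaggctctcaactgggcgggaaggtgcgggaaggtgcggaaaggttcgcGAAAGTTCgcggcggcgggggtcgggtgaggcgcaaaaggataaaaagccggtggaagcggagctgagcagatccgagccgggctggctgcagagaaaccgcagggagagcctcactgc
This pair occurs 2 times in the window and, with a further GAA unit after 2 more bases on either strand, 1 time. The pair is present in 7 of 19 matched heat shock promoters (36.8%), in 8.81% of promoters of genes called at least 2-fold higher and in 5.56% of all. The longer form is present in 4 of 19 heat shock promoters and 0.429% of all. DNAJB1 and HSPH1 rose without a match in this window.

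**Figure D3:**
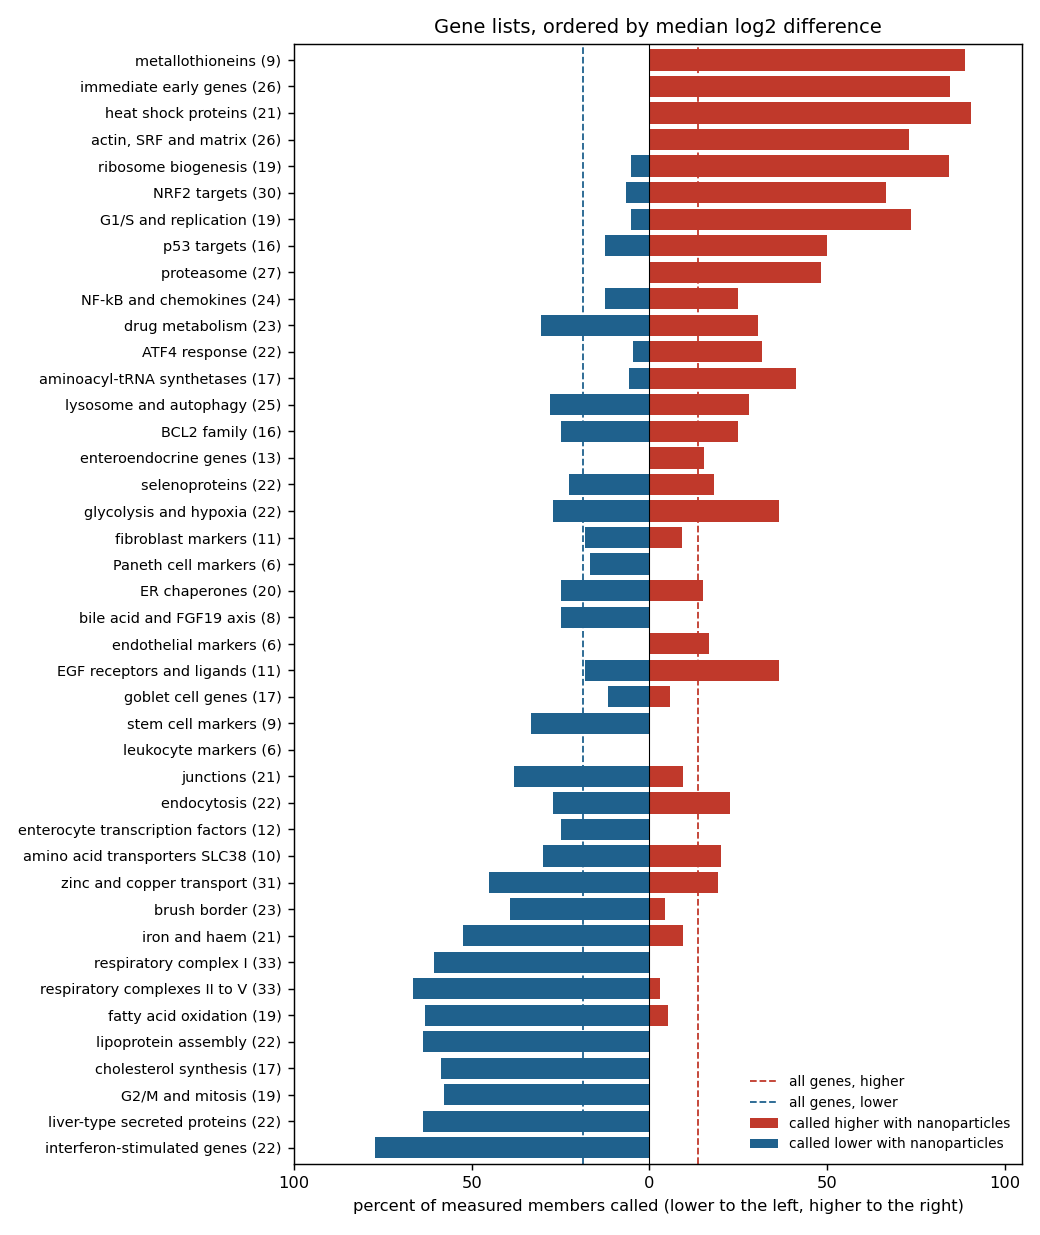
Bars give, for each of 42 gene lists (measured members in parentheses), the percentage called higher with nanoparticles to the right and lower to the left, in order of the list median. Dashed lines mark the shares of all genes, 13.7% higher and 18.6% lower, and metallothioneins, immediate early genes and heat shock proteins stand at the top and interferon-stimulated genes at the bottom.

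NRF2 targets detoxify electrophiles and make glutathione. Of 30 measured, 20 were called higher and 2 lower (66.7% and 6.67%), with a median of 0.42 that poly-A scaling turned to -0.37 and hybridization scaling to -0.02. HMOX1 read 12.79, 12.78 and 12.70 with nanoparticles and 8.71, 8.37 and 8.70 with ions. SRXN1, which repairs oxidised peroxiredoxins, read 11.61, 11.36 and 11.45 against 8.77, 8.65 and 9.06. Both genes rose without overlap, and in both the ion arrays were within 0.1 log2 units of the medium mean on average. GCLM, the modifier subunit of glutamate-cysteine ligase, was 4.51-fold higher (2.17 ± 0.09), and SLC7A11, the cystine importer, 2.83-fold. AKR1B10, a carbonyl reductase, rose 5.02-fold, NQO1 by 0.84 and the glutathione reductase gene GSR by 0.83. TXNRD1, thioredoxin reductase 1, was 4.19-fold higher on the probe set read here, and the second probe set had the opposite sign. The members that fell were ABCC3, an organic anion pump (-0.79), and BLVRB, a biliverdin reductase (-0.45). TXN and FTL, abundant in both groups, differed by 0.20 and 0.12 and were not called. The antioxidant response core TGACNNNGC was present in 7 of 24 matched NRF2 target promoters (29.2%), in 20.7% of promoters of genes at least 2-fold higher and in 14.8% of all.

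Genes of iron and haem handling other than HMOX1 were mostly lower. Of 21 measured, 2 rose (HMOX1 and the ferrochelatase gene FECH, 0.72) and 11 fell (9.52% and 52.4%), with a median of -0.27, or -1.06 and -0.71 under the control scalings. ALAD, an early enzyme of haem synthesis, read 7.37, 7.10 and 7.27 with nanoparticles and 8.14, 8.52 and 8.47 with ions, 2.19-fold lower. PPOX, a late enzyme of the same pathway, fell by 0.84. The iron exporter gene SLC40A1 and the importer gene SLC11A2 fell by 0.92 and 0.73. The transferrin receptor gene TFRC differed by -0.01, with an interval of -0.18 to 0.17. Among 22 selenoprotein genes 4 rose and 5 fell (18.2% and 22.7%, median 0.0007), close to the 13.7% and 18.6% of all genes, and the 5 became 3 without nanoparticle replicate 3 or ion replicate 3. Besides TXNRD1, the mitochondrial reductase gene TXNRD2 rose by 0.96, though only 1 of its 2 probe sets had that sign and the call was lost under poly-A scaling (0.17), and the secreted selenium carrier gene SELENOP was 2.36-fold lower.

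Immediate early genes encode transcription factors and phosphatases that respond to growth factors and stress within minutes. Of 26 measured, 22 were called higher and 0 lower (84.6% and 0%) 24 h after exposure began, with a median of 1.04 that kept its sign under poly-A (0.25) and hybridization scaling (0.60). FOSL1, an AP-1 subunit, read 7.34, 7.21 and 7.27 with nanoparticles and 4.33, 4.11 and 4.33 with ions. FOS read 8.59, 8.50 and 8.43 against 5.17, 5.73 and 5.77. The FOSL1 baseline was dim, whereas the differences of 3.02 ± 0.12 and 2.95 ± 0.16 were many times the spread. DUSP1 and DUSP6, phosphatases that switch off MAP kinases, were 5.51-fold and 5.44-fold higher, the former with 1 of 3 probe sets of the opposite sign. NR4A1, an orphan nuclear receptor, was 4.99-fold higher, EGR1 4.01-fold, ATF3 3.47-fold and JUN 2.83-fold. MYC rose by 0.47. FOSL2, NR4A2, NR4A3 and KLF4 were not called, KLF4 with an interval of -0.30 to 0.22. The AP-1 motif TGANTCA was present in 10.9% of promoters of genes at least 2-fold higher and in 5.83% of all.

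Of 11 EGF receptor family genes, ligands and regulators, 4 rose and 2 fell (36.4% and 18.2%, median -0.06), the lower share being close to the 18.6% of all genes. ERBB3, a kinase-poor receptor for neuregulins, was 2.19-fold lower and ERBB2 fell by 0.73, whereas EGFR rose by 0.41, with 3 of its 9 probe sets of that sign. The ligand gene NRG1 and the receptor inhibitor gene ERRFI1 rose by 0.83 and 0.84. NRG1 lost its call with the mean of its probe sets (0.12), and both lost it under poly-A scaling (0.04 and 0.05).

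Actin-linked and matrix genes, many of them targets of the factors SRF and YAP, were higher as well. Of 26 measured, 19 were called higher and 0 lower (73.1% and 0%). The 19 became 15 to 18 without each of the 6 arrays. Their list median of 0.72 turned to -0.06 under poly-A scaling and was 0.29 under hybridization scaling. ANKRD1, a nuclear ankyrin repeat protein, read 10.26, 10.27 and 10.19 with nanoparticles and 6.99, 7.12 and 7.40 with ions. The matricellular genes CCN2 and CCN1 were 4.70-fold and 3.66-fold higher. The collagen receptor gene ITGA2 was 3.59-fold higher and the calponin-related gene TAGLN 2.99-fold. VIM, the intermediate filament of mesenchymal cells, was 3.18-fold higher on the probe set used and had the opposite sign on its other probe set. FN1, an abundant matrix gene, differed by 0.08 with an interval of -0.10 to 0.27, inside 1.5-fold.

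Several of the largest rises outside these lists encode secreted or signalling proteins. NPPB, the B-type natriuretic peptide, read 11.15, 11.26 and 11.51 with nanoparticles and 8.01, 7.28 and 7.67 with ions, 12.6-fold higher (limma adjusted p 1.8e-08). RGS2, which shuts down G protein signals, read 10.07, 10.05 and 10.05 against 6.10, 6.48 and 6.79, 12.1-fold. MMP1, interstitial collagenase, read 10.03, 10.42 and 10.71 against 6.55, 7.68 and 7.34, 9.18-fold. The nanoparticle arrays of RGS2 agreed within 0.02, while those of MMP1 spread over 0.68 and still lay above every ion array.

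Of 24 NF-kB and chemokine genes, 6 rose and 3 fell (25% and 12.5%), and 11 were below the median of all genes in both groups. The list median was 0.18, or -0.61 and -0.26 under the control scalings. The largest difference was that of CXCL8, the neutrophil attractant interleukin 8, which read 6.91 to 7.16 with nanoparticles and 4.41, 4.08 and 4.49 with ions, a 6.49-fold difference (2.70 ± 0.15). CXCL2, a related chemokine gene, rose by 0.56 from a dim level, and TNF was not called (0.25). The inhibitor gene NFKBIA, a sensitive readout of NF-kB activity, differed by -0.03, with an interval of -0.23 to 0.17. RELB rose by 0.66, a direction that turned under poly-A scaling (-0.12). The membrane chemokine gene CXCL16 fell by 0.86 and the interferon-induced CXCL10 by 0.53.

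Interferon-stimulated genes were lower with nanoparticles, with 17 of 22 measured called lower and 0 higher (0% and 77.3%). Their median of -0.70 compares with -0.04 over all genes, and reached -1.48 (poly-A scaling) and -1.13 (hybridization scaling), where all genes had -0.83 and -0.48. IFIT1, which binds viral RNA caps, read 4.70, 4.47 and 4.65 with nanoparticles and 7.58, 7.31 and 7.33 with ions. ISG15, a ubiquitin-like modifier, read 7.86, 8.26 and 8.45 against 10.14, 9.91 and 9.94. IFIT2 had 4.82, 4.67 and 4.83 against 6.55, 6.80 and 7.06. No nanoparticle array of these genes reached an ion array, and IFIT1 and IFIT2 fell from levels above the median of all genes to levels below it. OAS1, a sensor of double-stranded RNA, was 3.15-fold lower, IFIT3 3.42-fold, the RNA helicase gene IFIH1 2.48-fold and IRF9, part of the complex that drives the programme, 2.38-fold. Members that were not called were IFI44, IFI44L, MX1, MX2 and IRF1, of which all but IRF1 were dim, with MX1 at -0.29 and IFI44L at 0.22. The ion group stood close to medium, with a list median of -0.03 against it.

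The IFIT1 and ISG15 promoters are shown for this group. Capitals mark 2 GAAA units set apart by any 2 bases, the core bound by interferon regulatory factors, a motif chosen after the values were seen.
IFIT1, chr10:89392373-89392672, plus strand: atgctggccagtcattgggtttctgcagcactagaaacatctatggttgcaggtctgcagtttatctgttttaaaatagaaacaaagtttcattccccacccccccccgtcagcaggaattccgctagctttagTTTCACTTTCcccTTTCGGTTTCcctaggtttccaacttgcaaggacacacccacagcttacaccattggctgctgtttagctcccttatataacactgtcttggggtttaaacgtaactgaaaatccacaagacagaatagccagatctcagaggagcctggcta
ISG15, chr1:1013247-1013546, plus strand: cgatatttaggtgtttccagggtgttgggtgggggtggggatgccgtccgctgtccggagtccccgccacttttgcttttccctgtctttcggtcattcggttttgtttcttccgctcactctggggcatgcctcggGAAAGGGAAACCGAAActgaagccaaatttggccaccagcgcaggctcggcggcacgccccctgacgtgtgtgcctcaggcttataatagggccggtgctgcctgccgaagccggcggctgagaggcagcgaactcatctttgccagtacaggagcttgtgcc
Each window holds 2 matches, which overlap in ISG15. The core is present in 13 of 18 matched interferon-stimulated promoters (72.2%) and in 2.95% of all, and in 6.12% of promoters of genes called at least 2-fold lower.

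Genes that build ribosomes were higher. Of 19 measured, 16 rose and 1 fell (84.2% and 5.26%), with a median of 0.66 that poly-A scaling turned to -0.12 and was 0.23 under hybridization scaling. NOP58, a core protein of small nucleolar particles, read 11.94, 11.88 and 11.81 with nanoparticles and 10.87, 10.73 and 10.85 with ions. NOP16 and WDR43 rose by 0.99 and 0.95, and the nucleolin gene NCL by 0.66. The differences were near 2-fold or less, yet the groups did not overlap. Under poly-A scaling NOP58, NOP16 and WDR43 lost their calls (0.27, 0.20 and 0.16). NHP2 fell by 0.32, and the abundant nucleophosmin gene NPM1 differed by 0.11.

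Of 27 proteasome subunit genes, 13 rose and 0 fell (48.1% and 0%), with a median of 0.21 that turned to -0.58 and -0.23 under poly-A and hybridization scaling. PSMD12, a lid subunit, rose by 0.98 ± 0.08, and lost its call under poly-A scaling (0.19). PSMD1 and PSMC4 rose by 0.62 and 0.54, and these turned to -0.17 and -0.25 under poly-A scaling. Of 20 endoplasmic reticulum chaperone and stress genes, 3 rose and 5 fell (15% and 25%, median -0.04), near the 13.7% and 18.6% of all genes, and the 5 became 3 without nanoparticle replicate 1 or 2 or ion replicate 3. HSPA5, the resident HSP70 of that compartment, rose by 0.28, CRELD2 by 0.86, and SEL1L and ATF6 fell by 0.65 and 0.53, ATF6 on 2 of its 4 probe sets. CRELD2 lost its call under poly-A scaling (0.07) and ATF6 with the mean of its probe sets (-0.18). XBP1 differed by 0.01, with an interval of -0.23 to 0.25.

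The amino acid response driven by ATF4 was mixed. Of 22 measured, 7 rose and 1 fell (31.8% and 4.55%), with a median of 0.11, or -0.67 and -0.32 under the control scalings. PPP1R15A, which restarts translation by aiding dephosphorylation of eIF2, was 3.33-fold higher, the amino acid exchanger gene SLC7A5 2.68-fold and the stress sensor gene SESN2 2.29-fold, the last losing its call under poly-A scaling (0.41). The classical targets DDIT3, ASNS and TRIB3 were not called, at -0.18, 0.02 and 0.21, nor was ATF4 (-0.17). Of 17 aminoacyl-tRNA synthetase genes, 7 rose and 1 fell (41.2% and 5.88%, median 0.09, or -0.70 and -0.35 under the control scalings), a count of 7 that dropped to 3 without nanoparticle replicate 3, to 4 without nanoparticle replicate 2 or ion replicate 2, and to 5 or 6 without another of the 6 arrays. HARS1 and CARS1 rose by 0.69 and 0.43, directions that turned under poly-A scaling (-0.10 and -0.35), for CARS1 barely also under hybridization scaling (-0.0011), and AARS1 fell by 0.65.

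Cell cycle genes split by phase. Of 19 genes of G1/S entry and DNA replication, 14 rose and 1 fell (73.7% and 5.26%), with a median of 0.41 that poly-A scaling turned to -0.38 and hybridization scaling to -0.03. Of 19 genes of G2 and mitosis, 0 rose and 11 fell (0% and 57.9%), with a median of -0.51, or -1.30 and -0.95 under the control scalings. CDC6, which loads the replicative helicase, read 9.56, 9.68 and 9.66 with nanoparticles and 8.65, 8.62 and 8.48 with ions. KIF20A, a kinesin of late mitosis, read 8.56, 8.59 and 8.51 against 9.51, 9.99 and 9.77. CDC6 was higher on every nanoparticle array and KIF20A lower on every nanoparticle array. CCNE2 and RRM2 rose by 1.00 and 0.80, and the helicase gene MCM2 by 0.77. CDC6, CCNE2 and RRM2 lost their calls under poly-A scaling (0.26, 0.21 and 0.0097), RRM2 also under hybridization scaling (0.36). CENPF and TPX2 fell by 0.73 and 0.72, and MKI67, the common proliferation marker, by 0.65. TYMS, a replication gene, fell by 0.38, whereas the mitotic genes CDC20 and BUB1B were not called (0.13 and -0.03). In RNA from whole cultures, a change in the share of cells in a phase and a change in RNA per cell cannot be told apart, here or for other cell features below.

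Of 16 genes on a list of p53 targets and GADD45 genes, 8 rose and 2 fell (50% and 12.5%). The list median of 0.30 turned to -0.49 and -0.14 under the control scalings. The 8 became 6 without any 1 nanoparticle array or without ion replicate 1, and 7 without ion replicate 2. PLK2 read 8.49, 8.53 and 8.51 with nanoparticles and 5.38, 5.72 and 5.88 with ions, a 7.19-fold difference without overlap. GADD45B and GADD45G, stress kinase partners, were 5.06-fold and 2.19-fold higher, and the cell cycle inhibitor gene CDKN1A 2.09-fold. Under poly-A scaling 2 of the 16 genes were called higher, PLK2 and GADD45B, and 9 lower. GADD45G (0.34) and CDKN1A thus lost their calls under that scaling. MDM2, a direct p53 target, differed by 0.10 (interval -0.12 to 0.32), and DDB2 and SESN1, targets as well, fell by 0.87 and 0.88. Of 16 BCL2 family genes, 4 rose and 4 fell (25% and 25%), with a median of 0.06, or -0.73 and -0.38 under the control scalings. The death-promoting BCL2L11 and BMF fell by 1.22 and 0.76, BAX rose by 0.54, HRK by 0.96 from a dim level (0.17 and not called under poly-A scaling), and the survival gene MCL1 by 0.35.

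**Figure D4:**
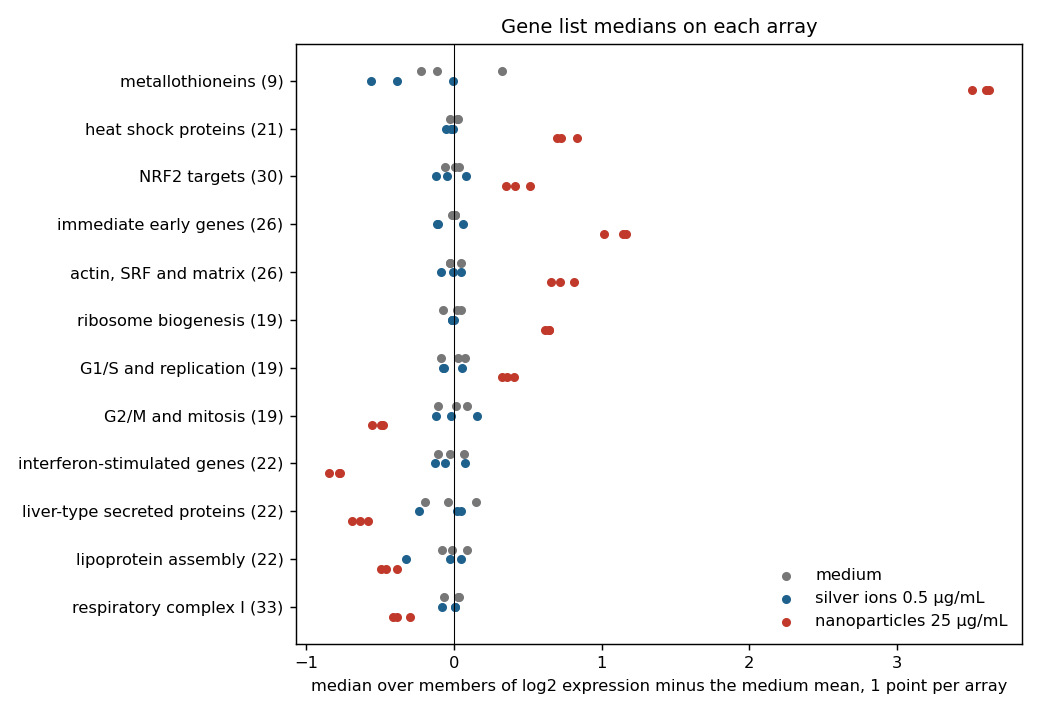
Each point is 1 array, placed at the median over the members of a gene list of log2 expression minus the medium mean. Red points, the 3 nanoparticle arrays, sit apart from the 3 ion arrays in blue for all 12 lists, and the metallothionein list holds the widest gap, with array medians from 3.51 to 3.63 against -0.56 to -0.01.

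Secreted proteins of the liver type were lower. Of 22 measured, 14 fell and 0 rose (0% and 63.6%), with a median of -0.67, or -1.45 and -1.10 under the control scalings. The 14 became 15 without ion replicate 1 and 11 to 13 without each of the others. ORM1, an acute-phase protein, read 7.64, 7.49 and 7.36 with nanoparticles and 10.07, 10.32 and 10.23 with ions, 6.56-fold lower. Angiotensinogen, AGT, read 7.04, 6.96 and 7.01 against 9.12, 9.46 and 9.23. ALB, albumin, read 7.93, 8.03 and 6.92 against 8.79, 10.52 and 10.33. All 3 genes fell without overlap, but ALB varied far more than the others, and ion replicate 1 lay more than 1.5 log2 units below the other ion arrays. The ALB difference was -2.25 ± 0.45 (limma adjusted p 0.0014) and -2.80 without ion replicate 1. AFP, the fetal counterpart of albumin, had the same low array and fell by 1.43 ± 0.42. The retinol carrier gene RBP4 and the thyroid hormone carrier gene TTR fell by 1.03 and 0.99. The fibrinogen genes FGA and FGB were not called (-0.16 and -0.24).

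Lipoprotein genes followed the same direction, with 14 of 22 lower and 0 higher (0% and 63.6%, median -0.38), 15 without ion replicate 1 and 10 or 11 without each of the others. APOC3, an inhibitor of lipoprotein lipase, read 7.30, 7.57 and 7.39 with nanoparticles and 10.19, 10.41 and 10.37 with ions. ABCA1, which exports cholesterol, read 6.45, 6.62 and 6.06 against 7.70, 7.89 and 7.73. Both were separated from the ion range by more than 1 log2 unit. FABP1, a fatty acid carrier, was 2.89-fold lower, with ion replicate 1 again the lowest of its group (7.19, 8.33 and 8.47). DGAT2 and DGAT1, which make triglyceride, were 2.55-fold and 2.22-fold lower. APOB fell by 0.77. APOA1 fell by 0.65 ± 0.23 with overlapping arrays (limma adjusted p 0.0441), and 1 of its 3 probe sets had the opposite sign. MTTP and FABP2 were dim here and not called. In cholesterol synthesis 10 of 17 fell and 0 rose (0% and 58.8%, median -0.48), counts that were equal without each of the 6 arrays. EBP, SQLE and TM7SF2 fell by 0.79, 0.73 and 0.72, EBP on 2 of its 4 probe sets, and the regulator gene SREBF2 by 0.63, while the entry enzyme gene HMGCS1 differed by 0.02 (interval -0.26 to 0.29).

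Mitochondrial genes were lower by small amounts. Of 33 complex I genes, 20 fell and 0 rose (0% and 60.6%) with a median of -0.29, and 13 fell without nanoparticle replicate 1 or 2. Of 33 genes of complexes II to V and their assembly, 22 fell and 1 rose (3.03% and 66.7%) with a median of -0.32. NDUFA7 read 7.83, 7.91 and 7.79 with nanoparticles and 8.83, 8.67 and 8.92 with ions, 1.95-fold lower. NDUFV3 fell by 0.88, and ATP5MC2, of the ATP synthase rotor, by 0.86, with 1 of its 2 probe sets of that sign. COX5B and COX8A, subunits of cytochrome oxidase, fell by 0.61 and 0.61. The gene that rose was CYCS, cytochrome c (0.46 ± 0.07), and SDHA differed by -0.0036 (interval -0.21 to 0.20). In fatty acid oxidation 12 of 19 fell and 1 rose (5.26% and 63.2%, median -0.35). The 12 became 9 to 11 without each of the 6 arrays. The 1 rise was lost without nanoparticle replicate 1 or 2 or ion replicate 2 or 3. ACSL1, which activates fatty acids, fell by 0.91, EHHADH by 0.86 and the regulator gene PPARA by 0.73, on all 9 of its probe sets.

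Glycolysis and hypoxia genes split, with 8 of 22 higher and 6 lower (36.4% and 27.3%, median -0.01). PFKFB3 and PFKP, which promote the committed step of glycolysis, were 2.57-fold and 2.52-fold higher, PFKP on 1 of its 2 probe sets. ADM, the vasodilator adrenomedullin, read 10.95, 10.95 and 10.99 with nanoparticles and 9.40, 9.49 and 9.45 with ions, 2.86-fold higher. FBP1, of the reverse pathway, fell by 0.80 at a dim level. VEGFA, a direct target of hypoxia-inducible factor, differed by -0.01 (interval -0.31 to 0.29).

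Genes of the absorptive surface that were called were mostly lower. Of 23 brush border genes, 1 rose and 9 fell (4.35% and 39.1%, median -0.25), and 17 were below the median of all genes in both groups. The 9 became 13 without ion replicate 1 and 7 or 8 without each of the others. PDZK1, a scaffold for apical transporters, read 8.32, 8.16 and 8.28 with nanoparticles and 9.76, 10.40 and 10.19 with ions, 3.64-fold lower. USH1C, of the links between microvilli, and the alkaline phosphatase gene ALPI fell by 0.97 and 0.94, ALPI at a dim level and on 1 of its 2 probe sets. The disaccharidase genes SI and LCT were near the bottom of the range and not called. Among 12 enterocyte transcription factor genes 3 fell and 0 rose (0% and 25%, median -0.13). These were ELF3 by 0.80, CDX2 by 0.85 with a second probe set of opposite sign, and HNF4G by 0.42, a dim gene that lost its call without nanoparticle replicate 2 or 3 or ion replicate 3 (-0.39, -0.38 and -0.31) and with the mean of its probe sets (-0.22). Of 21 junction genes, 2 rose and 8 fell (9.52% and 38.1%, median -0.10), and 1 rose without nanoparticle replicate 2 or 3 or ion replicate 2. The tight junction genes CGN and CLDN3 fell by 0.78 and 0.55 and the E-cadherin gene CDH1 by 0.39, whereas the desmosome gene PKP2 rose by 0.78, turning to -0.01 under poly-A scaling. TJP1 and OCLN were not called (0.18 and -0.21).

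Single genes with large falls came from several classes. EPB41L3, a membrane skeleton adaptor, read 4.71, 4.42 and 4.41 with nanoparticles and 7.78, 7.85 and 7.18 with ions, 8.52-fold lower, and all 3 of its probe sets had that sign. KLB, the co-receptor for FGF19, read 5.27, 5.12 and 5.04 against 7.30, 7.69 and 7.38, 4.97-fold lower. SLC38A4, an amino acid carrier, read 4.12, 4.49 and 4.74 against 6.26, 6.96 and 6.86. These genes ended below the median of all genes with nanoparticles while the ion arrays stayed above it. The ligand FGF19 and receptor FGFR4 of KLB were not called, and 2 of 8 genes of that axis fell and 0 rose (0% and 25%, median -0.04), the other being the bile acid exporter gene SLC51B (-0.76). Of 10 SLC38 carriers, 2 rose and 3 fell (20% and 30%, median -0.15). SLC38A7 rose by 0.54, turning to -0.25 under poly-A scaling, and SLC38A11, dim in both groups, fell by 0.83. APELA, a peptide hormone gene, was 6.23-fold lower, ASPA, an aminoacylase, 5.69-fold, the proteoglycan gene GPC5 5.53-fold and the alcohol dehydrogenase gene ADH6 4.94-fold. COL5A2, a fibrillar collagen gene, was 4.86-fold lower from a level at the 98th percentile with ions. GABRB1, a GABA receptor subunit gene, was 4.97-fold lower, with 5 of 6 probe sets of that sign, and the histone gene H2AC6 fell by 2.32. Histone copies share sequence, so the H2AC6 value may include its neighbours.

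Drug metabolism genes went both ways, with 7 of 23 higher and 7 lower (30.4% and 30.4%) and a median of 0.14, or -0.65 and -0.30 under the control scalings. CYP1A1, CYP1B1 and TIPARP, textbook targets of the aryl hydrocarbon receptor, were 2.75-fold, 2.07-fold and 1.80-fold higher. Under poly-A scaling 1 of the 23 genes was called higher, CYP1A1, and 15 lower, so CYP1B1 and TIPARP were no longer called higher. UGT2A3, a glucuronosyltransferase, was 4.01-fold lower, SULT2A1 2.21-fold at a dim level and GSTA1 2.08-fold. In the lysosome and autophagy list 7 of 25 rose and 7 fell (28% and 28%), with a median of 0.06, or -0.73 and -0.37 under the control scalings. GLA, alpha-galactosidase, was 2.46-fold higher, the calcium channel gene MCOLN1 2.35-fold and the autophagosome gene MAP1LC3B 2.13-fold, while WIPI1 was 2.09-fold lower. MCOLN1 and MAP1LC3B lost their calls under poly-A scaling (0.45 and 0.30). SQSTM1, the autophagy receptor and NRF2 target, rose by 1.04, with 4 of 5 probe sets of that sign. Among 22 endocytosis genes 5 rose and 6 fell (22.7% and 27.3%, median -0.11), and the 5 became 2 without nanoparticle replicate 2 and 3 without each of the other 5 arrays. The clathrin light chain gene CLTB rose by 0.79, and the early endosome tether gene EEA1 and the receptor gene LRP1 fell by 0.77 and 0.59, LRP1 on 2 of its 4 probe sets. CLTB lost its call under poly-A scaling (0.0059) and LRP1 with the mean of its probe sets (-0.20).

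Markers of other cell types gave few calls, and many were below the median of all genes in both groups. That held for 12 of 13 enteroendocrine, 11 of 17 goblet, 2 of 9 stem cell and 4 of 6 Paneth genes. It also held for 8 of 11 fibroblast, 6 of 6 leukocyte and 6 of 6 endothelial markers. Of 13 enteroendocrine genes 2 rose and 0 fell (15.4% and 0%, median 0.01, or -0.78 and -0.42 under the control scalings). CCK, the gut hormone cholecystokinin, read 7.51, 7.72 and 7.95 with nanoparticles and 4.59, 4.86 and 5.07 with ions, 7.41-fold higher, and CHGA rose by 0.36 at a dim level, turning to -0.43 and -0.08 under the control scalings. Of 17 goblet cell genes 1 rose and 2 fell (5.88% and 11.8%, median -0.07). TFF1 rose 2.63-fold and MUC13 and ZG16 fell by 0.91 and 0.63, while MUC2, the defining gel mucin, was dim and differed by 0.06. Stem cell markers gave 3 falls and 0 rises of 9 (0% and 33.3%, median -0.08), LRIG1 (-1.27), PROM1 (-0.52) and RNF43 (-0.42), and LGR5 was not called (0.06). Among 6 Paneth markers 1 fell (0% and 16.7%, median -0.03), LYZ (-1.16), 2 without nanoparticle replicate 3 or ion replicate 1, and DEFA5 and DEFA6 differed by 0.01 and -0.03. Fibroblast markers gave 1 rise and 2 falls of 11 (9.09% and 18.2%, median -0.02), PDGFRA (0.89, on 2 of 4 probe sets), COL3A1 (-1.31) and LUM (-0.77). PDGFRA lost its call with the mean of its probe sets (0.11) and under poly-A scaling (0.10). Without ion replicate 1 there were 2 rises and 3 falls. LUM was dim and lost its call without ion replicate 3 (-0.53), which left 1 fall. The mean level of the 6 fixed fibroblast markers lay between 6.06 and 6.16 on the nanoparticle arrays and 6.21 and 6.40 on the ion arrays. No leukocyte marker of 6 was called at an adjusted p under 0.05 by limma (median -0.09), and 1 was lower without ion replicate 1. Of 6 endothelial markers 1 rose (16.7% and 0%, median -0.05), CDH5 by 1.10 at a dim level, a call lost under poly-A scaling (0.31). The part of other cells in any result here was not tested.

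Each exposure can also be read against the 3 medium arrays, which all these contrasts share. Nanoparticles at 25 µg/mL gave 6607 calls of 19775 (33.4%) against medium and 8109 genes (41.0%) at an unadjusted p under 0.05, and ions gave 0 calls by limma, with 1233 genes (6.24%) at an unadjusted p under 0.05. The same nanoparticles at 2.5 µg/mL gave 0 calls and 900 genes (4.55%) at an unadjusted p under 0.05. The median over called genes of the size of the difference between nanoparticles and ions was 0.49. For RGS2 the differences from medium were 3.45 with nanoparticles at 25 µg/mL, 0.10 at 2.5 µg/mL and -0.15 with ions. For AGT they were -2.63, -0.18 and -0.37. For MT2A they were 2.95, -1.10 and -0.51, so that ions and the lower nanoparticle dose both read under medium, neither called. NPPB had 4.12, 0.14 and 0.47. A missing call at 3 arrays a group does not show that the ions left a gene unchanged.

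**Figure D5:**
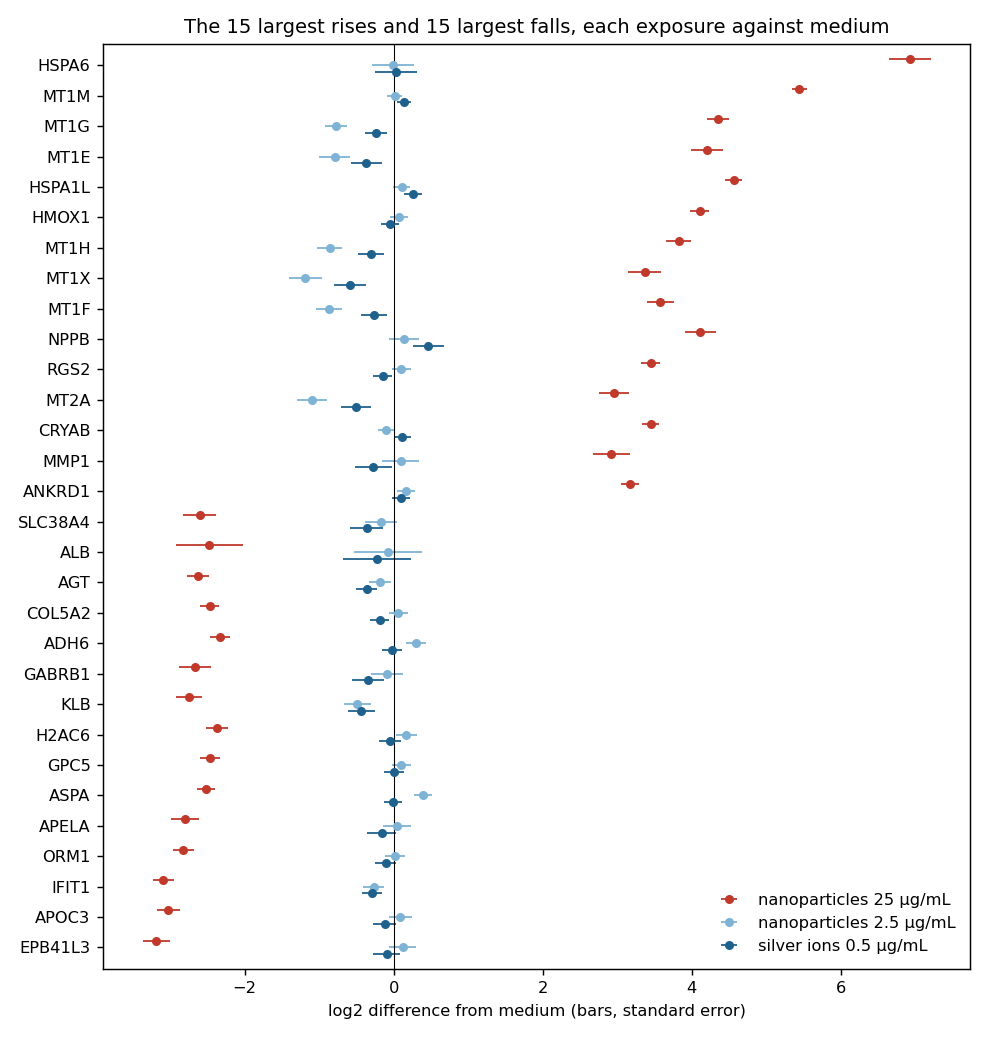
Log2 difference from medium, with standard error bars, for the 15 largest rises and 15 largest falls between nanoparticles and ions. Red points, nanoparticles at 25 µg/mL, lie between -3.19 and 6.93, ion points between -0.59 and 0.47 and points at 2.5 µg/mL between -1.19 and 0.39, with MT1X lowest.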

How the data were processed

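RNA from 12 samples (250 ng each) was read on Affymetrix human arrays, 1 array per sample. The authors deposited log2 expression values for 54675 probe sets, made with RMA and Partek per the submitters' processing notes, with versions not given in the sources used here. RMA makes the distributions of the arrays alike, so a shift shared by most genes cannot be read from these values.

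Of the probe sets, 62 were controls and 41091 carried exactly 1 gene symbol in GEO's platform annotation, most symbols being updated through the gene ID. Where a gene had several, the one whose mean over the 12 arrays was highest stood for it, which left 19775 genes. A linear model with 4 groups of 3 arrays was fitted with limma 3.58.1 in R 4.3.3 (8 residual and 6.25 prior degrees of freedom), the contrast being nanoparticles at 25 µg/mL minus ions at 0.5 µg/mL, with Benjamini-Hochberg adjustment over all genes and 95% intervals for single differences. Lists were described by counts, shares and medians, read against those over all genes. A gene whose higher group mean was below the median of all genes is called dim. Of 864 distinct genes in the 42 lists, 793 had a value and 71 were not analysed here. Promoters were matched by gene ID to RefSeq. Tests and figures used Python 3.11.15, scipy 1.17.1 and matplotlib 3.10.9, and the fit was tested on simulated data.

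Genes named by rule were the 15 largest rises and 15 largest falls with groups that did not overlap, up to 3 called members of each list with the largest differences, and HMOX1, MT1X, MT2A, DNAJB1, GCLM, SLC30A1 and TXNRD1. Other list members named as examples were chosen after their values were seen. The comparison and the lists were chosen with earlier results of these data known. Alternatives covered normalization, control scaling, dim genes, probe sets, the variance model, the arrays in the fit, the threshold and leaving out each array.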

Additional observations from a re-analysis of the deposited data

Results flagged for a closer look

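Control probe sets outside the comparison of genes stood higher on the nanoparticle arrays than on both the ion arrays and the medium arrays. The difference from the ion arrays was 0.79 on the log2 scale for the 24 poly-A control probe sets, 0.44 for the 18 hybridization control probe sets and 0.70 for the 6 ribosomal RNA probe sets. The poly-A means were 6.21, 5.56 and 6.31 on the nanoparticle arrays, 4.95, 5.33 and 5.43 on the ion arrays and 5.31, 5.54 and 5.39 on the medium arrays. Nanoparticle replicate 2 was thus close to the highest medium array. The part of this shift in the differences between genes was not tested.

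Probe sets without exactly 1 gene symbol, which no gene result uses, also carried signal. Of 13522 such probe sets, 2177 were called by limma (16.1%), 1374 higher and 803 lower with nanoparticles. The higher share of these calls was 63.1%, against 42.4% among called genes.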

How the results depend on the processing

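No paired analysis was possible because the labels give no replicate numbers shared between groups. Scaling on the poly-A controls gave 17509 calls, 141 higher and 17368 lower, with 63 genes at least 2-fold higher, 5072 at least 2-fold lower and 411 within 1.5-fold. Scaling on the hybridization controls gave 14315, 498, 13817, 108, 1503 and 3691 in the same order. Among the genes named by rule, 8 turned under poly-A scaling. The differences of RELB, PSMD1, PSMC4 and HARS1 turned to -0.12, -0.17, -0.25 and -0.10. Those of CARS1, SLC38A7, PKP2 and CHGA turned to -0.35, -0.25, -0.0118 and -0.43, and under hybridization scaling CARS1 and CHGA turned to -0.0011 and -0.0756. The scaling itself lowers every nanoparticle value by one amount per array. Every rise smaller than 0.788 therefore turned under poly-A scaling, listed here or not. Under hybridization scaling the same held for every rise smaller than 0.436.

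Testing against a 1.5-fold difference (limma's treat) left 598 calls, 249 higher and 349 lower. Averaging probe sets left 230 genes at least 2-fold lower. Without dim genes, 6193 genes lay within 1.5-fold, fewer genes being tested. Testing each of 41091 probe sets gave 11426 calls, 5531 higher and 5895 lower, 583 and 573 at least 2-fold, and 29986 within 1.5-fold. An adjusted p under 0.01 left 4370 calls. Leaving out each array gave 5411 to 6419 calls.

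Of 133 genes named by rule, 131 kept direction and call without each array, the exceptions being HNF4G and LUM, and 126 kept them under the other settings apart from control scaling and treat. Several probe sets were present for 77 of the named genes, and in 19 of these the probe sets differed in sign. The number of arrays limits precision.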

Other observations

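Some gene families were looked at after their values had been seen, so their counts are descriptions. Of 42 replication-type histone genes, 11 fell and 1 rose (2.38% and 26.2% higher and lower, against 13.7% and 18.6% of all genes), with median -0.16, among the falls H1-2 (-1.54), H2BC21 (-1.50) and H2BC5 (-1.32). Copies share sequence and 31 of the 42 were dim. Of 22 matrix metalloproteinase genes, 4 rose and 3 fell (18.2% and 13.6%), near the shares of all genes. Beside MMP1, the stromelysin genes MMP10 and MMP3 rose by 2.49 and 0.87 and matrilysin, MMP7, by 1.71, whereas MMP11 fell by 1.00. Of 22 dual-specificity phosphatase genes, 8 rose and 6 fell (36.4% and 27.3%), with DUSP2 at 1.92 and DUSP9 at -1.16.

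Of 466 ZNF zinc finger genes, 118 rose and 51 fell (25.3% and 10.9%, against 13.7% and 18.6% of all genes), and their median of 0.06 became -0.73 with poly-A and -0.38 with hybridization scaling. Of 10 SERPINA protease inhibitor genes, 5 fell and 0 rose (0% and 50%), with SERPINA4 at -2.01 and SERPINA10 at -1.83. Of 7 ETV transcription factor genes, 3 rose and 1 fell (42.9% and 14.3%), and ETV5 rose by 1.83. Of 21 proton pump subunit genes, 5 rose and 4 fell (23.8% and 19%), from ATP6V1C1 at 1.19 to ATP6V1G3 at -1.92.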
